A study of Mus musculus with 6 samples.

Results

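The genes described here are 41 immediate early and activity-dependent genes, chosen by symbol to cover the Fos, Jun, Egr, Nr4a, Klf and Dusp families and other rapidly induced genes. All 41 were found among the 55376 genes of a retina RNA-seq count table. The comparison was between 3 WT and 3 Wfs1-KO retinas, each taken whole from a different mouse aged 240 days. The Wfs1-KO mice carry Wfs1 exon8del, a targeted deletion present in every cell of the animal, and are labelled Wfs1-/-. Both genotypes carry the strain label C57x129, whereas the methods of the study name a C57BL/6J background, and no treatment is named for either genotype. The question was how the loss of wolframin, the endoplasmic reticulum membrane protein encoded by Wfs1, alters retinal transcripts at an age at which the study looked for changes that come before neuronal loss.

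Immediate early genes are transcribed within minutes of a stimulus, without the need for new protein synthesis. In neurons, calcium entry and growth factor receptors activate kinases of the MAP kinase, CaM kinase and cAMP pathways. These kinases phosphorylate factors such as CREB and SRF that already sit at the promoters. The products fall into transcription factors (AP-1, EGR and NR4A proteins), inhibitors that shut the signal off (dual-specificity phosphatases, Sprouty proteins) and proteins that act at synapses (Arc, Homer1, neuronal pentraxins). Light and synaptic input induce several of them in the retina. Neither the light conditions nor the time of day at collection is given in the sources used here.

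Total counts ranged from 17916885 in WT replicate 3 to 101334381 in Wfs1-KO replicate 1. Wfs1 itself was at 65.4 ± 4.30 CPM (counts scaled by TMM to a library of 1e6 reads; SD, n = 3) in WT and at 7.34 ± 5.65 in Wfs1-KO, with no overlap. Summed photoreceptor markers lay between 48556 and 71834 CPM in the 6 retinas, as fits the tissue label. Wfs1-KO replicate 2 stood apart: its mean correlation with the other retinas was 0.918, against 0.962 to 0.971 for the rest. It held 302 CPM of 9 microglia and macrophage markers, 480 CPM of 5 blood cell markers and 505 CPM of 10 pigment epithelium markers, against at most 55.1, 41.2 and 171 CPM in any other retina. WT replicate 3 differed from the other retinas in sex-linked transcripts, with 1137 counts of the Y-linked gene Ddx3y against 0 to 2 elsewhere. The X-linked gene Xist was at 159, 417 and 0.227 CPM in WT replicates 1 to 3. In Wfs1-KO it was at 771, 749 and 1137 CPM, so Xist was higher in Wfs1-KO without overlap. The part of this sex-linked difference between the genotypes in the other values was not tested. Counts without Wfs1-KO replicate 2 are therefore given as well, and the calls lost without WT replicate 3 are named.

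Levels of the 41 genes per kilobase of exon spanned more than 3 orders of magnitude. In WT the order began with Sgk1 (122 CPM per kb), Ier3 (44.1) and Btg2 (38.6). Nptx2 (31.4), Jund (23.4), Fos (19.4), Jun (18.8) and Nr4a1 (17.6) came next. Egr2 (0.0552) and Fosl1 (0.0360) stood at the low end. Ier3 and Btg2 overlapped between WT retinas, as did Fos, Jun and Nr4a1 with one another. Jund overlapped with Nptx2, Fos, Jun and Nr4a1. These neighbours in the order were therefore not separated. Fosl1, a FOS family subunit, had 0 to 13 counts per retina and Egr2, a zinc finger factor of the EGR family, had 0 to 10. Neither passed the filter on low counts. The 0 counts of Egr2 in Wfs1-KO replicate 3 allow up to 0.0681 CPM and the 0 counts of Fosl1 in WT replicate 3 up to 0.170 CPM, counting error only. Fosl1 shares 62.4% of its exon bases with the overlapping gene Ccdc85b, so its level is uncertain beyond that error. The other 39 genes were tested, and each of them exceeded the filter cutoff of 0.22 CPM in every retina.

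**Figure D1:**
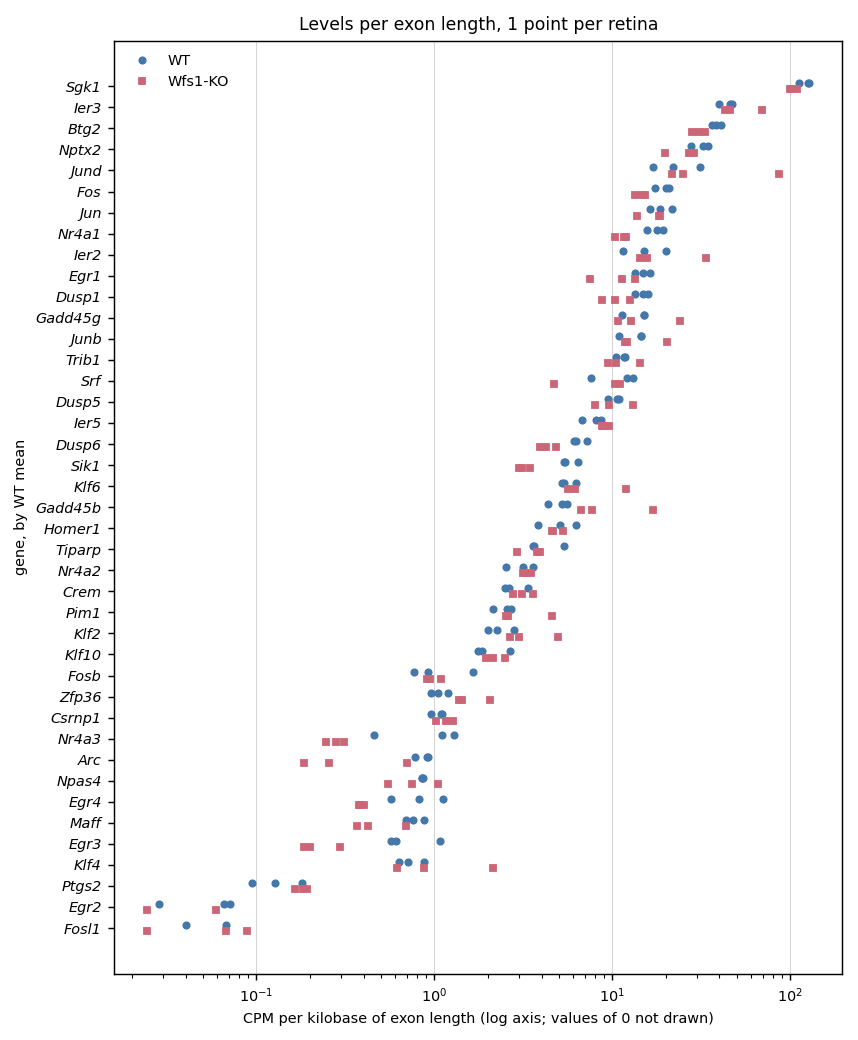
Level of each of the 41 genes in CPM per kilobase of exon on a log axis, with 1 point per retina (blue circles, WT; red squares, Wfs1-KO), ordered by the WT mean; values of 0 are not drawn. Sgk1 stands at the top with a WT mean of 122 CPM per kb, and the red squares of Nr4a3, Arc, Egr4 and Egr3 lie to the left of their blue circles.

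Values of 12 of the 39 tested genes were lower in all 3 Wfs1-KO retinas than in any WT retina (30.8%, against 3.94% of all 18547 tested genes). These were Nr4a3, Egr3, Arc, Egr4, Sik1, Maff, Nr4a1, Dusp6, Dusp1, Fos, Btg2 and Sgk1, and their Wfs1-KO means were 29.2% to 84.6% of the WT means. Only Gadd45b, Zfp36 and Ier5 were higher without overlap (7.69%, against 5.01%). An unadjusted p under 0.05 in edgeR's quasi-likelihood test was reached by 8 of the 39 in the lower direction (20.5%, against 0.566% of all tested genes), namely Fos, Egr3, Egr4, Nr4a1, Nr4a3, Dusp1, Dusp6 and Sik1. In the higher direction it was reached by 1, Gadd45b (2.56%, against 2.24%). After adjustment over all tested genes 0 of the 39 passed 0.05 by edgeR, with adjusted p from 0.979 to 0.998, and only 2 genes of the whole table did (0.0108%). By DESeq2, 3 of the 39 passed, all in the lower direction (7.69%, against 0.0904% of all genes in that direction and 0.246% in either). Nr4a3, Egr3 and Sik1 fell in that test, with adjusted p of 0.0234, 0.0221 and 0.0499 by DESeq2. Over the 14 alternative fits the adjusted p ran from 0.00138 to 1.00 for Nr4a3, from 0.00984 to 1.00 for Egr3 and from 0.00199 to 1.00 for Sik1.

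Leaving out Wfs1-KO replicate 2 raised the number of lower genes with an unadjusted p under 0.05 to 11 of 40 by edgeR (27.5%, against 2.39% of all genes tested in that fit), Egr2 being tested as well. Egr1, Arc and Maff were the genes added, and 0 of the 40 passed after adjustment by edgeR (0.125% of all genes did) and 3 by DESeq2 (7.50%, against 0.225% of all genes in the lower and 0.475% in either direction). In the higher direction 1 of the 40 had an unadjusted p under 0.05 by edgeR (2.50%, against 2.8%). Without both that retina and WT replicate 3, 9 of 39 genes were lower (23.1%, against 3.09% of all genes tested in that fit) and 0 higher (against 4.55%) at this threshold by edgeR. Without WT replicate 3 alone, 6 of 39 were lower (15.4%, against 0.482%) and 0 higher (against 1.48%), and Dusp1 (unadjusted p = 0.123), Dusp6 (0.0524) and Gadd45b (0.0844) were the genes lost. Egr3, Nr4a1, Nr4a3 and Sik1 (10.3% of the 39) were lower at an unadjusted p under 0.05 by edgeR in each of the 6 fits that left out 1 retina. The share of all genes that did so in every such fit was not determined. In the single fits, 0.367% to 2.39% of all genes were lower at this threshold. The median log2 fold change of Wfs1-KO over WT was -0.05 over the 39 genes and 0.02 over all tested genes. In whole retinas, fewer cells of a type and less RNA per cell cannot be told apart. Summed Mueller glia markers were also lower in Wfs1-KO, at 3059 to 3667 CPM against 4042 to 4297 CPM in WT. By edgeR 1 of the 6 markers, Glul, was lower at an unadjusted p under 0.05 (against 0.566% of all tested genes). Glul made up most of these sums, at 2967 to 3245 CPM in WT and 1949 to 2683 CPM in Wfs1-KO. The other listed Mueller glia markers overlapped between genotypes with all retinas. Of the 6 markers, 5 had fold changes below 0 with all retinas (against 47.2% of all tested genes). The same number did so without Wfs1-KO replicate 2 (against 50.3%). Bipolar cell sums were higher in Wfs1-KO (1462 to 1600 CPM against 1304 to 1360 CPM), but the list was mixed. Of its 6 markers, 2 had fold changes below 0, 0 were without overlap and 0 had an unadjusted p under 0.05 by edgeR with all retinas. Pcp2 was at 335 CPM in Wfs1-KO replicate 2 and at 95.6 to 155 CPM elsewhere. Photoreceptor sums met at the edge of their ranges (48556 to 64159 CPM against 64067 to 71834 CPM). Of the 10 photoreceptor markers, 9 had fold changes below 0 (against 47.2% of all tested genes), 4 of them without overlap (against 3.94%). Ganglion cell and amacrine cell sums overlapped with all retinas but not without Wfs1-KO replicate 2. Ganglion cell sums were then 858 and 965 CPM against 994 to 1152 CPM in WT. By edgeR 2 of 8 ganglion cell markers were then lower at an unadjusted p under 0.05 (against 2.39% of all genes). Amacrine cell sums were then 881 CPM in both Wfs1-KO retinas against 698 to 827 CPM, with 0 of 7 markers under an unadjusted p of 0.05 by edgeR. Pigment epithelium sums, high in replicate 2, were 93.4 and 54.5 CPM in the other Wfs1-KO retinas against 119 to 171 CPM in WT. Without replicate 2, 9 of these 10 markers had fold changes below 0 (against 50.3% of all tested genes). By edgeR 6 were lower at an unadjusted p under 0.05 (against 2.39%) and 1, Lrat, fell with an adjusted p of 0.0467. The part of these marker lists in the differences was not tested.

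**Figure D2:**
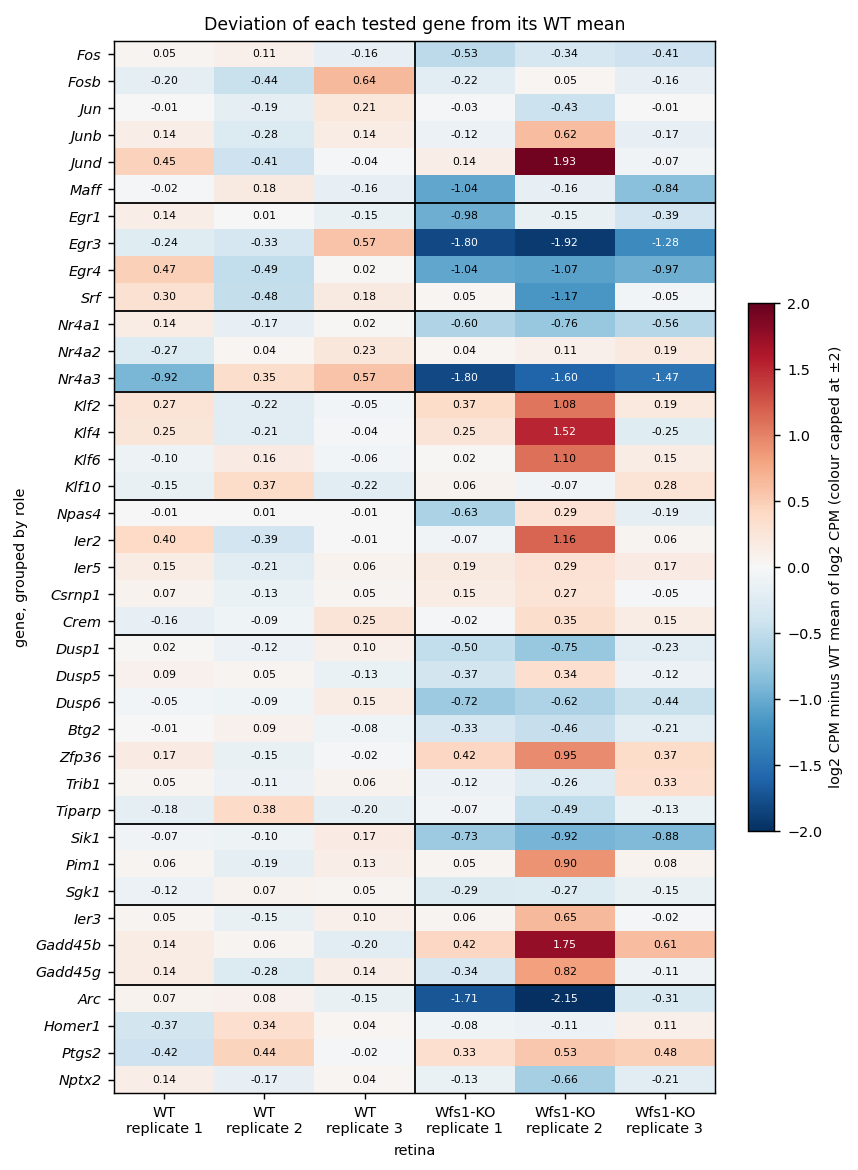
Heat map of the 39 tested genes (rows, grouped by role) in the 6 retinas (columns), where each cell holds log2 CPM minus the WT mean of log2 CPM and colour is capped at 2 in either direction. Blue runs through all 3 Wfs1-KO columns for Egr3, Egr4, Nr4a1, Nr4a3 and Sik1, while the red cells of Jund, Klf4, Gadd45b and Ier2 lie mostly in Wfs1-KO replicate 2.

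The sequences before the transcription starts show what several of these genes share and the selection did not use. Of the 41 genes, 31 had at least 1 entry in a RefSeq promoter table (build GRCm38.p6, the same assembly as mm10), and 250 bases before each start were searched on both strands. Fosl1, Egr1, Egr3, Arc, Ier2, Klf10, Nptx2, Crem, Trib1 and Sik1 had no entry. The half-site of the cAMP response element, CGTCA or TGACG on the other strand, to which CREB binds, occurred in 19 of the 31 (61.3%), against 19.8% of 27025 genes in the table. Its palindromic form TGACGTCA, which contains the half-site on both strands, was found for Btg2, Dusp1 and Maff (9.68%, against 1.77% of all genes). The EGR motif GCGNGGGCG occurred in 10 of the 31 (32.3%, against 5.33%) and the CArG box, to which SRF binds, in 4 (12.9%, against 1.62%). TATAAA was present in 6 (19.4%, against 14.3%) and the AP-1 motif TGANTCA in 1 (3.23%, against 7.82%). Among 9 genes that were lower in all Wfs1-KO retinas and had an entry, 8 held the half-site, as did 11 of the other 22. A gene with several entries counted if any of its windows held a match, so the searched lengths differed. Sgk1 had 6 windows and Maff 3 among the lower genes, and Egr2 had 5 and Csrnp1 4 among the others. These matches describe the letters of the windows and were not tested.

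The NR4A genes encode orphan nuclear receptors without a classical ligand pocket, which act as transcription factors as soon as they are made. Their windows are shown because each held 4 half-sites in 250 bases, although their values differed between the family members. Capitals mark CGTCA or TGACG. The Nr4a1 window precedes the start of a transcript that begins inside the annotated span of the gene. The Nr4a3 stretch ends where annotated exon bases begin and thus holds 3 of its 4 matches.

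Nr4a1, chr15:101266596-101266845, + strand, build GRCm38.p6: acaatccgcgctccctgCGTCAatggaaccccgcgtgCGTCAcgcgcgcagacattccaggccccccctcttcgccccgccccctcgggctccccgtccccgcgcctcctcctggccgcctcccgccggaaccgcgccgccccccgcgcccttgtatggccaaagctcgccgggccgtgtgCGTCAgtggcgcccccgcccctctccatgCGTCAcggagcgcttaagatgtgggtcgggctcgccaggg
Nr4a2, chr2:57124004-57124253, - strand, build GRCm38.p6: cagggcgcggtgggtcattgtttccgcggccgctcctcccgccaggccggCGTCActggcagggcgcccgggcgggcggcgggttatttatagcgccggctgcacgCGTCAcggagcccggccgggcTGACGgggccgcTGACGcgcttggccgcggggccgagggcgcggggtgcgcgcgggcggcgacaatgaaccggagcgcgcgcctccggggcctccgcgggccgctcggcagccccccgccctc
Nr4a3, chr4:48045055-48045152, + strand, build GRCm38.p6: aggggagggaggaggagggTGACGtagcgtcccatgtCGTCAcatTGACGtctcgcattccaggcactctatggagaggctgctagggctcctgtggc

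Nr4a1 and Nr4a3 were lower in Wfs1-KO and Nr4a2 was not. Nr4a1 (ENSMUSG00000023034.7, chr15:101254269-101274795) stood at 51.9, 41.9 and 47.8 CPM in WT replicates 1 to 3 and at 31.1, 27.8 and 31.8 CPM in Wfs1-KO replicates 1 to 3. The lowest WT retina thus lay above the highest Wfs1-KO retina. The mean was 47.2 ± 5.02 CPM in WT and 30.2 ± 2.13 in Wfs1-KO (SD, n = 3), which is 64.0% of WT. Its log2 fold change was -0.64 (SE 0.17) with all retinas and -0.59 (SE 0.15) without Wfs1-KO replicate 2. Nr4a3 (ENSMUSG00000028341.9, chr4:48045153-48086445) was 2.62, 6.35 and 7.38 CPM in WT and 1.40, 1.61 and 1.77 CPM in Wfs1-KO. The WT retinas were spread widely, with replicate 1 far below the others, and the Wfs1-KO retinas lay close together below them. The Wfs1-KO mean was 29.2% of WT, the lowest share among the 39 tested genes. The log2 fold change of Nr4a3 was -1.77 (SE 0.42), also -1.77 (SE 0.40) without Wfs1-KO replicate 2, and -1.51 without that retina and WT replicate 3. Nr4a2, also a factor of dopaminergic neurons, showed no such difference. It was at 9.50, 11.7 and 13.4 CPM in WT and 11.7, 12.3 and 13.1 CPM in Wfs1-KO, with overlapping genotypes and a log2 fold change of 0.10 (SE 0.20).

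In the EGR family and SRF, all 4 tested genes had fold changes below 0, and Egr3 and Egr4 did not overlap between genotypes. EGR proteins are zinc finger transcription factors induced through SRF and ERK signalling. Egr3 (ENSMUSG00000033730.4, chr14:70077203-70082550) was 2.50, 2.35 and 4.43 CPM in WT and 0.825, 0.758 and 1.20 CPM in Wfs1-KO. Every Wfs1-KO value was below every WT value, and WT replicate 3 was the highest of all. Wfs1-KO retinas held 30.0% of the WT mean, a log2 fold change of -1.73 (SE 0.39). The value was -1.60 (SE 0.37) without Wfs1-KO replicate 2 and -1.29 without WT replicate 3 as well. Egr4 (ENSMUSG00000071341.4, on chromosome 6) stood at 2.41, 1.22 and 1.76 CPM in WT and at 0.825, 0.805 and 0.863 CPM in Wfs1-KO. The Wfs1-KO retinas were nearly equal and the WT retinas scattered above them, with a log2 fold change of -1.11 (SE 0.37). Egr1 (ENSMUSG00000038418.7), the most abundant of the family, had 73.1, 67.0 and 59.8 CPM in WT and 33.6, 59.9 and 50.7 CPM in Wfs1-KO. Wfs1-KO replicate 2 reached the level of WT replicate 3, so the genotypes overlapped by a small margin. The log2 fold change of Egr1 was -0.47 (SE 0.24) with all retinas and -0.67 (SE 0.18) without that retina. Srf, the serum response factor, had the largest SD of the family in WT, with 19.9 to 34.2 CPM in WT and 12.4 to 28.7 CPM in Wfs1-KO. The lowest value came from Wfs1-KO replicate 2. A log2 fold change of -0.33 (SE 0.36) with that retina became -0.04 without it.

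Of the AP-1 subunits, Fos and Maff were lower in Wfs1-KO and the Jun genes were not separated. Fos (ENSMUSG00000021250.13, chr12:85473890-85477273), the prototype immediate early gene, was at 42.3, 44.0 and 36.6 CPM in WT and at 28.4, 32.4 and 30.8 CPM in Wfs1-KO. Both genotypes varied little and did not overlap. The WT mean was 41 ± 3.88 CPM and the Wfs1-KO mean 30.5 ± 2.01 CPM (SD, n = 3). The log2 fold change was -0.43 (SE 0.17), or -0.48 (SE 0.14) without Wfs1-KO replicate 2. The window before its start, shown because Fos is the reference gene of this class, holds TGACG at 2 places (capitals).

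Fos, chr12:85473640-85473889, + strand, build GRCm38.p6: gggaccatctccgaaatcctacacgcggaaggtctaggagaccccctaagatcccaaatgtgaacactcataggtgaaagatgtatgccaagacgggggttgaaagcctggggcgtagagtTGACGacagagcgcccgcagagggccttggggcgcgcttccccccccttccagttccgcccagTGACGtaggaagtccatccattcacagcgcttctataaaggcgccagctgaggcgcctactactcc

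Maff, a small Maf protein that lacks a transactivation domain, was at 1.75, 2.02 and 1.59 CPM in WT and 0.844, 1.59 and 0.976 CPM in Wfs1-KO. Wfs1-KO replicate 2 all but touched the lowest WT retina, and the log2 fold change was -0.66 (SE 0.37) with it and -0.99 (SE 0.32) without it. Jun ranged from 44.1 to 68.8 CPM over the 6 retinas with overlapping genotypes. Fosb and Junb overlapped too, at 2.92 to 6.24 CPM and 19.6 to 36.6 CPM. Jund, with the highest WT mean of the group per kilobase but overlapping Fos and Jun, had the largest spread. It was 144 CPM in Wfs1-KO replicate 2 against 28.4 to 51.9 CPM in the other retinas. With that retina the log2 fold change was 0.92 (SE 0.55), and without it -0.02 (SE 0.22). Jund shares 52.6% of its exon bases with the overlapping gene Gm11175, so its counts are uncertain. The same holds for Fosl1 (62.4%), Dusp5 (22.1%) and Pim1 (15%), which also overlap other genes.

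Among the feedback inhibitors, Dusp1, Dusp6 and Btg2 were lower in all Wfs1-KO retinas and Zfp36 was higher. Dusp1, a nuclear phosphatase of MAP kinases, was at 35.2, 31.9 and 37.4 CPM in WT and at 24.7, 20.6 and 29.7 CPM in Wfs1-KO. The genotypes were separated by a gap smaller than the range within Wfs1-KO, and the log2 fold change was -0.48 (SE 0.19). Dusp6, a cytoplasmic phosphatase with a preference for ERK, was at 17.5, 17.1 and 20.1 CPM in WT and at 11.0, 11.9 and 13.4 CPM in Wfs1-KO. Its genotypes were clearly apart, at 66.3% of the WT mean, with a log2 fold change of -0.59 (SE 0.18) and of -0.58 (SE 0.17) without Wfs1-KO replicate 2. Btg2, an antiproliferative protein that binds the deadenylase complex, was at 105, 112 and 100.1 CPM in WT and at 84.0, 76.7 and 91.1 CPM in Wfs1-KO. These values did not overlap, but the log2 fold change of -0.33 (SE 0.16) was small. The windows of Dusp1 and Btg2 are shown because each holds the full palindrome TGACGTCA (capitals). The stretch of Dusp1 lies inside the annotated span of the gene, before an internal start, and ends where annotated exon bases begin.

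Dusp1, chr17:26508520-26508722, - strand, build GRCm38.p6: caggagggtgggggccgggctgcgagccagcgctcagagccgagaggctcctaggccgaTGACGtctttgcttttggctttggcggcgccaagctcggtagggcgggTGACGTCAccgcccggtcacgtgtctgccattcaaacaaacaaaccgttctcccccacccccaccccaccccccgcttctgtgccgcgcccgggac
Btg2, chr1:134079156-134079405, - strand, build GRCm38.p6: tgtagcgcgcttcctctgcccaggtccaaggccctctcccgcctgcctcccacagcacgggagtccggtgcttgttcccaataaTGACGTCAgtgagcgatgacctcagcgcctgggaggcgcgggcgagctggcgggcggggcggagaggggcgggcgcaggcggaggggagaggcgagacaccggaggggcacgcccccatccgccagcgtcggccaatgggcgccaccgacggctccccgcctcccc

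Zfp36, which encodes the mRNA-destabilising protein tristetraprolin, went the other way. It was 4.16, 3.32 and 3.63 CPM in WT and 4.95, 7.15 and 4.77 CPM in Wfs1-KO, with the highest value in Wfs1-KO replicate 2. No overlap was seen, and the log2 fold change was 0.60 (SE 0.27) with that retina and 0.38 (SE 0.22) without it. Dusp5, Trib1 and Tiparp overlapped between genotypes, with log2 fold changes between -0.25 and 0.01. Trib1, a pseudokinase, varied most among them in absolute terms, from 58.8 to 89.0 CPM, both extremes being Wfs1-KO retinas.

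Sik1 was the kinase gene with the clearest separation. Salt-inducible kinase 1 is itself a CREB target and phosphorylates the CRTC coactivators of CREB, which holds them outside the nucleus. Sik1 (ENSMUSG00000024042.7, chr17:31844250-31855804) was at 24.5, 24.1 and 29.0 CPM in WT and at 15.6, 13.6 and 14.0 CPM in Wfs1-KO. The gap between the genotypes was wider than the range within either. Means were 25.9 ± 2.70 and 14.4 ± 1.04 CPM (SD, n = 3), which puts Wfs1-KO at 55.6% of WT. The log2 fold change was -0.85 (SE 0.17) with all retinas and -0.81 (SE 0.16) without Wfs1-KO replicate 2, and it stayed between -0.91 and -0.72 in all 14 alternative fits. Sgk1, the serum- and glucocorticoid-induced kinase and the most abundant gene of the 41, was at 454, 519 and 511 CPM in WT and at 403, 409 and 444 CPM in Wfs1-KO. Its genotypes were separated by a narrow gap, and the log2 fold change was -0.24 (SE 0.16). Pim1, a survival kinase, was at 14.2 CPM in Wfs1-KO replicate 2 and at 6.66 to 8.34 CPM elsewhere.

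Arc was the only synaptic effector of the 4 listed whose genotypes did not overlap. Its protein promotes the internalisation of AMPA receptors. Arc (ENSMUSG00000022602.14, on chromosome 15) was at 2.79, 2.82 and 2.38 CPM in WT and at 0.786, 0.568 and 2.13 CPM in Wfs1-KO. Wfs1-KO replicate 3 came close to the WT retinas whereas the other Wfs1-KO retinas were far below them. The log2 fold change was -1.20 (SE 0.52) with all retinas, -0.92 (SE 0.40) without Wfs1-KO replicate 2 and -1.97 in the most negative of the 14 alternatives. Nptx2, a neuronal pentraxin that clusters AMPA receptors, was the most abundant of the 4 and ranged from 70.6 to 87.2 CPM in WT and from 50.1 to 72.6 CPM in Wfs1-KO. Homer1, a postsynaptic scaffold, had the largest SD in WT, at 57.8 ± 13.9 CPM against 55.7 ± 4.72 in Wfs1-KO (SD, n = 3). Counts per gene do not separate its short activity-induced isoform from the long ones. Ptgs2, an inducible prostaglandin synthase, reached at most 0.852 CPM.

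Genes with higher values in Wfs1-KO were mostly high in Wfs1-KO replicate 2. Gadd45b, a stress sensor that activates MAP kinase signalling, was at 7.59, 7.17 and 5.96 CPM in WT and at 9.20, 23.2 and 10.5 CPM in Wfs1-KO. All Wfs1-KO retinas were above all WT retinas, with replicate 2 far above the rest. The log2 fold change was 1.05 (SE 0.37) with that retina and 0.50 (SE 0.19) without it. Ier5, a regulator of the heat shock response, was at 28.4, 22.0 and 26.7 CPM in WT and at 29.0, 31.3 and 28.7 CPM in Wfs1-KO. Its genotypes were barely separated, with a log2 fold change of 0.21 (SE 0.17). Replicate 2 of Wfs1-KO held the highest value of the 6 retinas for 17 of the 39 genes (43.6%, against 38.4% of all tested genes) and the lowest for 12 (30.8%, against 37.0%). In that retina Klf4 was 2.86 times, Gadd45b 2.35 times, Ier2 2.24 times, Gadd45g 2.05 times and Klf6 2.02 times the mean of the other Wfs1-KO retinas. Klf2, Klf4, Klf6 and Klf10 are zinc finger factors of endothelium, epithelium and many other cells, and none of the 4 had an unadjusted p under 0.05 with or without that retina. Klf6, the most abundant of them, ranged from 21.9 to 26.4 CPM in the other 5 retinas and was at 50.5 CPM in Wfs1-KO replicate 2. Ier3, which modulates cell survival, was the most abundant of the growth arrest and survival genes and followed the same order, at 78.0 CPM there and 44.8 to 53.1 CPM elsewhere. The endothelial marker sum was 332 CPM in Wfs1-KO replicate 2, against 320 and 326 CPM in the other Wfs1-KO retinas. The microglia, blood and pigment epithelium sums given above were highest in Wfs1-KO replicate 2, which is 1 retina and shows no shared course. Of those lists 1 of 9, 1 of 5 and 0 of 10 genes had an unadjusted p under 0.05 by edgeR in the higher direction (against 2.24% of all tested genes). No gene of these lists was at 0 counts in all 6 retinas together. Their part in the values was not tested.

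**Figure D3:**
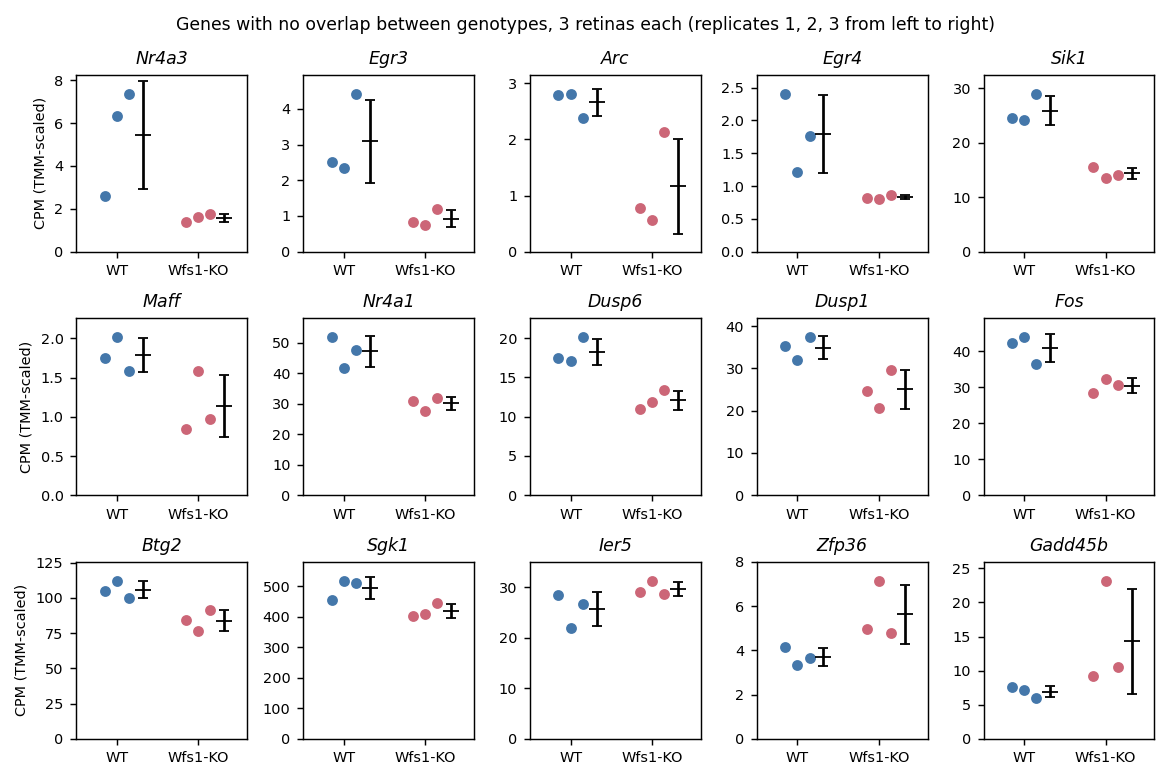
CPM (TMM-scaled, each axis from 0) of the 15 genes whose genotypes did not overlap, with 1 point per retina in replicate order and the mean ± SD of 3 retinas as a bar beside each group. For 12 genes the Wfs1-KO points lie below the WT points, with the lowest shares of the WT mean for Nr4a3 (29.2%) and Egr3 (30.0%), and for Ier5, Zfp36 and Gadd45b they lie above.

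The remaining regulators did not separate with all retinas. Npas4, a neuron-specific factor induced by calcium, was at 3.06 to 3.11 CPM in the WT retinas and at 1.98 to 3.79 CPM in Wfs1-KO, so its spread in Wfs1-KO enclosed the WT values. The highest value was that of Wfs1-KO replicate 2. Without that retina Npas4 was lower in Wfs1-KO without overlap (as were 11.4% of all genes). Its log2 fold change was -0.13 (SE 0.31) with that retina and -0.41 (SE 0.26) without it. Csrnp1, a nuclear factor, and Crem, whose locus also gives a repressor of cAMP-driven transcription, had log2 fold changes of 0.13 (SE 0.24) and 0.16 (SE 0.20). Ier2 had the largest SD of these genes, at 32.4 ± 16.5 CPM in Wfs1-KO against 23.6 ± 6.41 in WT (SD, n = 3). The value of 51.4 CPM in Wfs1-KO replicate 2 set that spread.

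**Figure D4:**
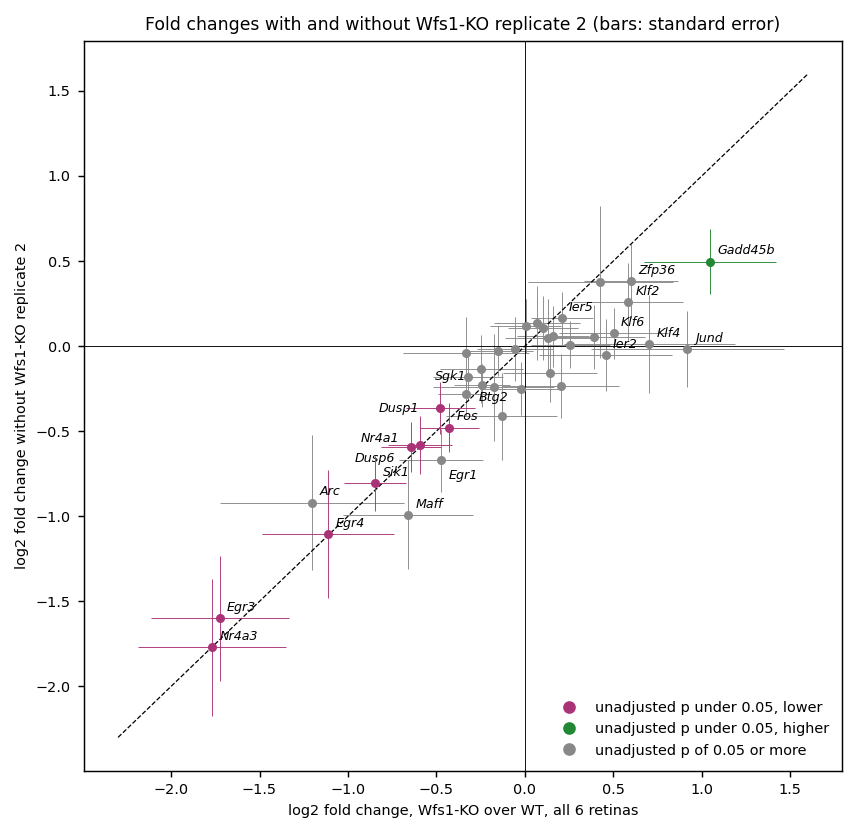
Log2 fold change of Wfs1-KO over WT for the 39 tested genes with all 6 retinas (x axis) and without Wfs1-KO replicate 2 (y axis), with standard errors as bars and the dashed line marking equal values. Nr4a3, Egr3, Egr4, Sik1, Nr4a1 and Dusp6 lie on or near the line, whereas Jund and Klf4 move from 0.92 and 0.70 to about 0 without that retina.

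Levels of several of the lower genes ran in parallel across the 6 retinas. Pearson's r of log2 CPM was 0.987 for Egr3 with Dusp6, 0.966 for Egr4 with Nr4a1, 0.954 for Egr3 with Sik1 and 0.944 for Nr4a1 with Sik1. Jund with Klf4 (0.981) and Ier3 with Pim1 (0.992) formed pairs that were high in Wfs1-KO replicate 2. Over all 741 pairs of tested genes the median r was 0.033, with 45 pairs above 0.9 and 6 below -0.9. These coefficients describe 6 retinas that include the genotype difference and the library that stands apart, so they carry no test.

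Among 73 genes of the same pathways outside the 41, Spry4 had the clearest separation. Of 18 upstream kinases of the calcium, cAMP and MAP kinase pathways and 15 CREB, SRF and MEF2 factors and coactivators, all tested, 0 had an unadjusted p under 0.05 in edgeR's test in either direction, with or without Wfs1-KO replicate 2. The median log2 fold changes of these lists were -0.09 and -0.05 with all retinas, and turned to 0.03 and 0.16 without that retina. Of 18 other rapidly induced genes, such as Atf3 and Myc, 0 passed with all retinas, and the median of 0.03 turned to -0.17 without Wfs1-KO replicate 2. Without Wfs1-KO replicate 2, Cdkn1a, a cell cycle inhibitor, and Nfil3, a bZIP repressor, passed in the lower direction (2 of 18, against 2.39% of all genes). Of 10 ERK feedback genes 1 passed in the lower direction (against 0.566% of all tested genes). It was Spry4, which encodes a Sprouty inhibitor of receptor tyrosine kinase signalling. Spry4 was at 18.3, 18.8 and 18.7 CPM in WT and at 9.996, 9.80 and 10.9 CPM in Wfs1-KO. The WT retinas were nearly equal and far above the Wfs1-KO retinas, with a log2 fold change of -0.86 (SE 0.17), or -0.84 without Wfs1-KO replicate 2, and an adjusted p of 0.906 by edgeR. By DESeq2 the adjusted p of Spry4 was 0.0203, and 0.00119 without that retina. Of 12 late activity-dependent neuronal genes, such as Vgf and Scg2, 0 passed, and their median log2 fold change was -0.07. By edgeR, 0 genes of these 5 lists had an adjusted p under 0.05, and by DESeq2 only Spry4 did.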

How the data were processed

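RNA-seq covered 6 whole retinas, 3 from WT and 3 from Wfs1-KO mice. Per the labels, the authors trimmed reads with Trimmomatic 0.39, mapped them to mm10 with STAR 2.5.3a, summarised them over exons into gene counts with featureCounts 1.6.4 and deposited raw counts per gene; the methods of the study name other versions of Trimmomatic and STAR. Whether counting used strand is not given in the sources used here. Columns of the table were matched to samples by genotype letter and replicate number, C being read as control and W as Wfs1-KO. The libraries read as Wfs1-KO are those low in Wfs1. The 2 library columns that match no sample were not used.

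Counts were tested for all genes with edgeR 4.0.16 in R 4.3.3 (filterByExpr, TMM scaling, quasi-likelihood test, genotype as the only term, Benjamini-Hochberg adjustment over all 18547 tested genes). Standard errors were obtained as the absolute log2 fold change over the root of the F statistic. DESeq2 1.42.0 was an alternative, as were other scalings and filters, a replicate block and leaving out each retina. Leaving out WT replicate 3 and Wfs1-KO replicate 2 together was chosen after seeing the data. The edgeR steps were tested on simulated data. Total counts of 17916885 to 101334381 set the precision of low genes.

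The 41 genes and the other lists were chosen with earlier results of these data known. Values in every retina are given for genes with an unadjusted p under 0.05 with all retinas or without Wfs1-KO replicate 2 and for genes whose genotypes do not overlap. Other genes are given by range, with the most abundant and most variable of each role, and at most 3 genes of a pathway list are named by p; Nr4a2 was added as a family member, and the genes named for their ratio in Wfs1-KO replicate 2 or for their correlation were chosen after their values were seen. Mkl1, Mkl2, Cyr61 and Ctgf were matched by their current symbols. Positions are from GENCODE M21 (GRCm38) and promoter windows from RefSeq.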

Additional observations from a re-analysis of the deposited data

How the results depend on the processing

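The number of genes of the whole table with an adjusted p under 0.05 was 2 by edgeR with all retinas. It was 49 by DESeq2, 95 by DESeq2 without Wfs1-KO replicate 2, 9 without a filter on low counts, 1 with a replicate block, 0 to 24 when each retina was left out in turn, and 16 without WT replicate 3 and Wfs1-KO replicate 2, an alternative chosen after seeing the data. Of the 39 immediate early genes, 8 were lower at an unadjusted p under 0.05 by edgeR (20.5%, against 0.566% of all tested genes), and 4 to 11 when each retina was left out. There were 5 without WT replicate 1 (12.8%, against 0.367% of all genes tested in that fit), 4 without Wfs1-KO replicate 1 (10.3%, against 0.494%) and 11 without Wfs1-KO replicate 2 (27.5%, against 2.39%). The number higher was 1 (against 2.24% of all genes), or 0 to 2 when each retina was left out (against 1.17% to 4.47%). It was 0 without WT replicate 3 and Wfs1-KO replicate 2 (against 4.55%). Their median log2 fold change of -0.05 moved between -0.146 (without Wfs1-KO replicate 2) and 0.0616 (without Wfs1-KO replicate 1). The cause was not tested. Genotypes did not overlap for 15 of the 39 (38.5%, against 8.96% of all genes) and for 13 to 16 under other scalings. With fewer retinas 16 to 21 did not overlap (41% to 53.8%), where 15.5% to 39.8% of all genes did not. Without WT replicate 3 and Wfs1-KO replicate 2 it was 19 of the 39 (48.7%), near the 39.8% of all genes. Of 224 fold changes of 16 genes under 14 alternatives, 0 reversed in direction, and 6 passed the adjusted threshold, all by DESeq2 and for Egr3, Nr4a3 and Sik1. The 16 genes were chosen from these same data for separated genotypes or a small unadjusted p. Their directions could thus hardly reverse, and the lack of reversals is no evidence of robustness. Correlations of deviations between same-numbered WT and Wfs1-KO retinas were -0.23, -0.11 and 0.08, and no retina correlated best with its own number. With 3 retinas per genotype, such weak correlations cannot exclude that replicate numbers pair the retinas. With the replicate block, 7 of the 39 genes were lower (17.9%, against 0.415% of all genes) and 1 higher (against 1.26%) at an unadjusted p under 0.05 by edgeR.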
